A study of Mus musculus with 10 samples.

Results

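The Kruppel-like factors (KLFs) are zinc finger transcription factors, and 8 of their genes were followed through the differentiation of mouse embryonic stem (ES) cells: Klf2, Klf3, Klf4, Klf5, Klf6, Klf9, Klf10 and Klf13. They are 8 of the 17 KLF genes and 8 of the 22878 gene symbols in the RNA-Seq tables. They were picked in part from their measured values, since Klf4 and Klf2 part ways in these libraries, so every difference between libraries below is a description and carries no test. RNA-Seq of polyA RNA was done on R1 cells, a mouse ES cell line, that carried a lentiviral short hairpin RNA against Smyd5 (shSmyd5) or against luciferase (shLuc, the control). Smyd5 encodes a SET and MYND domain protein studied as a histone methyltransferase. ES cells were grown in serum with LIF, on gelatin with the GSK3 inhibitor CHIR9901 for several passages so that feeder cells were lost. Embryoid bodies (EBs), free-floating aggregates in which ES cells differentiate, were made in medium without LIF and collected after 24 h and on days 6, 10 and 14. Each combination of hairpin and stage had 1 library, 10 in all, so no difference has a replicate check. The cells were a transduced population and the EBs a mixture of cell types, and a change in the number of cells of a type and a change in RNA per cell cannot be told apart in such bulk samples.

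KLFs bind GC-rich boxes and CACCC boxes in promoters and enhancers through zinc fingers at the end of the protein, and related proteins of the SP family share this binding. In mouse ES cells Klf2, Klf4 and Klf5 overlap in function: they act with Pou5f1, Sox2 and Nanog to hold the cells in the undifferentiated state, and Klf4 is known as a target of LIF and STAT3 signalling and as a reprogramming factor. Klf3 is a repressor that recruits CtBP, Klf6 is a broadly expressed factor linked to injury and growth responses, and Klf9, Klf10 and Klf13 are repressors that recruit Sin3.

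The promoters of Klf2 and Klf4 are shown because these genes differed between shSmyd5 and shLuc in opposite directions. Both come from the RefSeq annotation of GRCm38.p6 and run from 250 bases before to 50 bases after the start site. That of Klf2 is chr8:72318812-72319111 on the plus strand, and that of Klf4 is chr4:55532426-55532725 on the minus strand. Capitals mark matches on either strand to a GC box (GGGCGG), to a MEF2 site (CTANNNNTAG) or to the CACCC box, searched by the letters of its name.
Klf2: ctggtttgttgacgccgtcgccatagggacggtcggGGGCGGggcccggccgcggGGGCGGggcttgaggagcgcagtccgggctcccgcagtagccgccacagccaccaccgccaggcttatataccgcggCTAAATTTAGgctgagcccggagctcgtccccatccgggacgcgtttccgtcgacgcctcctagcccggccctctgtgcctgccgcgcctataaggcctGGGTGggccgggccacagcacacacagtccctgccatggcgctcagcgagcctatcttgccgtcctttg
Klf4: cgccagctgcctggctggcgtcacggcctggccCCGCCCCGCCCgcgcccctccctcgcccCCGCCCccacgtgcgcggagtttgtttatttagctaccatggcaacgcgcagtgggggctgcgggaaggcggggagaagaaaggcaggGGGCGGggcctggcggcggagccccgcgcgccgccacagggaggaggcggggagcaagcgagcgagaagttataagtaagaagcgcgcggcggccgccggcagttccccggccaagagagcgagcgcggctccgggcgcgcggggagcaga
Klf2 had 2 GC boxes, which started at -214 and -195 from the start site, 1 CACCC box at -19 and 1 match to the MEF2 letters at -118. Klf4 had 4 GC boxes, at -217, -212, -189 and -101, of which the first pair overlap by 1 base, and neither of the other motifs. Of all 32851 promoters of the same length, 35.7% held a GC box, 57.5% a CACCC box and 3.7% the MEF2 letters. The STAT letters (TTCNNNGAA), held by 8.3%, were in neither of the promoters shown, and neither was TATAAA, held by 13.6%. The MEF2 and STAT motifs were added after the promoters had been seen. Promoters were found for 6 of the 8 genes, the others being those of Klf3, Klf6, Klf9 and Klf13. GC boxes numbered 6 in Klf3, 3 in Klf13, 1 in Klf6 and 0 in Klf9, and Klf9 was the only 1 of the 6 with the STAT letters. The promoter GC content was 69.3% for Klf2 and 74.3% for Klf4, against a median of 52.7% for all promoters.

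Expression is given as RPKM, in which the reads of a transcript are divided by its length and by the depth of its library, which allows genes of different length to be compared. Intervals are exact 95% limits for counting error in the reads, and they compare libraries, not conditions. Reads in genes numbered 3895537 in the shallowest library, that of shLuc ES cells, and 43377815 in the deepest, shLuc EBs on day 6, and each of the 8 genes had at least 134 reads in every library. Smyd5 itself was lower in the shSmyd5 library at every stage, with log2 folds between -4.71 on day 6 and -0.92 on day 14. Folds are log2 of RPKM plus 0.1, shSmyd5 over shLuc. Over all genes they followed the GC content of the transcript, with rank correlations across genes (which are not independent replicates) of -0.684 in ES cells, 0.576 at 24 h, -0.024 on day 6, -0.386 on day 10 and 0.324 on day 14. Folds with a fitted trend on GC content and transcript length removed are therefore given beside plain ones of the 8 genes as adjusted folds. Folds of all other genes are plain unless marked as adjusted. In ES cells and at 24 h, where the correlations were strongest, such plain folds include this trend. Transcript GC content was 61.6% for Klf2, 60.3% for Klf5, 54.7% for Klf4 and 42.4% for Klf6, against a median of 49.8% for all genes. In the mm9 annotation Mir1192 lies inside Klf9 on the same strand, and no other annotated gene overlaps any of the 8.

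Klf2 and Klf4 each had similar levels in shSmyd5 and shLuc EBs at 24 h, and from day 6 on the arms differed in opposite directions, with Klf4 higher and Klf2 lower in shSmyd5. Klf2 lies on chromosome 8 (74842932 to 74845555, mm9). In shSmyd5 its RPKM was 168.6 in ES cells, 97.2 at 24 h, 16.0 on day 6, 5.71 on day 10 and 4.57 on day 14. In shLuc it was 301.7 in ES cells, 93.6 at 24 h, 59.9 on day 6, 9.38 on day 10 and 14.0 on day 14. By RPKM Klf2 was highest in ES cells in both arms, 36.9-fold higher at its highest stage than at its lowest in shSmyd5 and 32.2-fold in shLuc. In shLuc this order depended on the adjustment: the log2 fold of 24 h over ES cells was -1.69 and became 0.42, and that of day 14 over ES cells was -4.42 and became -2.77. By RPKM the steepest step differed in time: the log2 fold of day 6 over 24 h was -2.59 (-2.67 to -2.52) in shSmyd5 and -0.64 (-0.70 to -0.58) in shLuc. That of day 10 over day 6 was -1.47 (-1.71 to -1.24) in shSmyd5 and -2.66 (-2.79 to -2.53) in shLuc. After adjustment these steps were -2.16 and -2.01 in shSmyd5, nearly equal, and -1.09 and -3.60 in shLuc. Between day 10 and day 14 the level in shLuc was higher at the later day (0.57, 0.42 to 0.73) and that in shSmyd5 was not (-0.31, -0.59 to -0.04).

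Between the arms, the log2 fold of Klf2 was -1.90 (-1.97 to -1.82) on day 6, -0.71 (-0.97 to -0.45) on day 10 and -1.59 (-1.78 to -1.42) on day 14. Adjusted for GC content and length these were -1.83, -0.18 and -1.79, so the difference on day 10 was small after adjustment. The fold of -0.84 in ES cells became 0.02 after adjustment, and the fold of 0.06 at 24 h became -0.71. At the early stages the sign for Klf2 therefore depended on the adjustment, and on day 6 and day 14 it did not.

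Klf4 lies on chromosome 4 (55540013 to 55545347, mm9). In shSmyd5 its RPKM was 68.7 in ES cells, 39.9 at 24 h, 21.6 on day 6, 26.2 on day 10 and 47.6 on day 14. In shLuc it was 75.8 in ES cells, 33.7 at 24 h, 3.08 on day 6, 4.67 on day 10 and 15.5 on day 14. By RPKM both arms had their highest level in ES cells and their lowest on day 6, 3.18-fold apart in shSmyd5 and 24.6-fold in shLuc, though the log2 fold of 24 h over ES cells in shLuc, -1.17, became 0.11 after adjustment. The step of day 6 over 24 h was -0.88 (-0.94 to -0.82) on the log2 scale in shSmyd5 and -3.41 (-3.54 to -3.28) in shLuc, and -0.76 and -3.77 after adjustment. By day 14 the level in shSmyd5 was 0.693 of that in shSmyd5 ES cells, and in shLuc it was 0.206 of that in shLuc ES cells.

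Klf4 was 6.81-fold higher in shSmyd5 on day 6, 5.51-fold on day 10 (log2 fold 2.46, 2.31 to 2.62) and 3.05-fold on day 14 (1.61, 1.53 to 1.69). These folds placed it at percentile 99.2, 99.8 and 99.2 of all genes tested on day 6, day 10 and day 14. Adjusted folds were 2.92, 2.59 and 1.41. In ES cells and at 24 h the log2 folds were -0.14 (-0.23 to -0.06) and 0.24 (0.17 to 0.32), and after adjustment they were 0.32 and -0.12. Over every gene that reached an RPKM of 3 in both libraries the fold had a median of -0.27 on day 6 (log2), and relative to it Klf4 stood at 3.04 and Klf2 at -1.63; on day 10 and day 14 that median was -0.03 and 0.02.

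**Figure D1:**
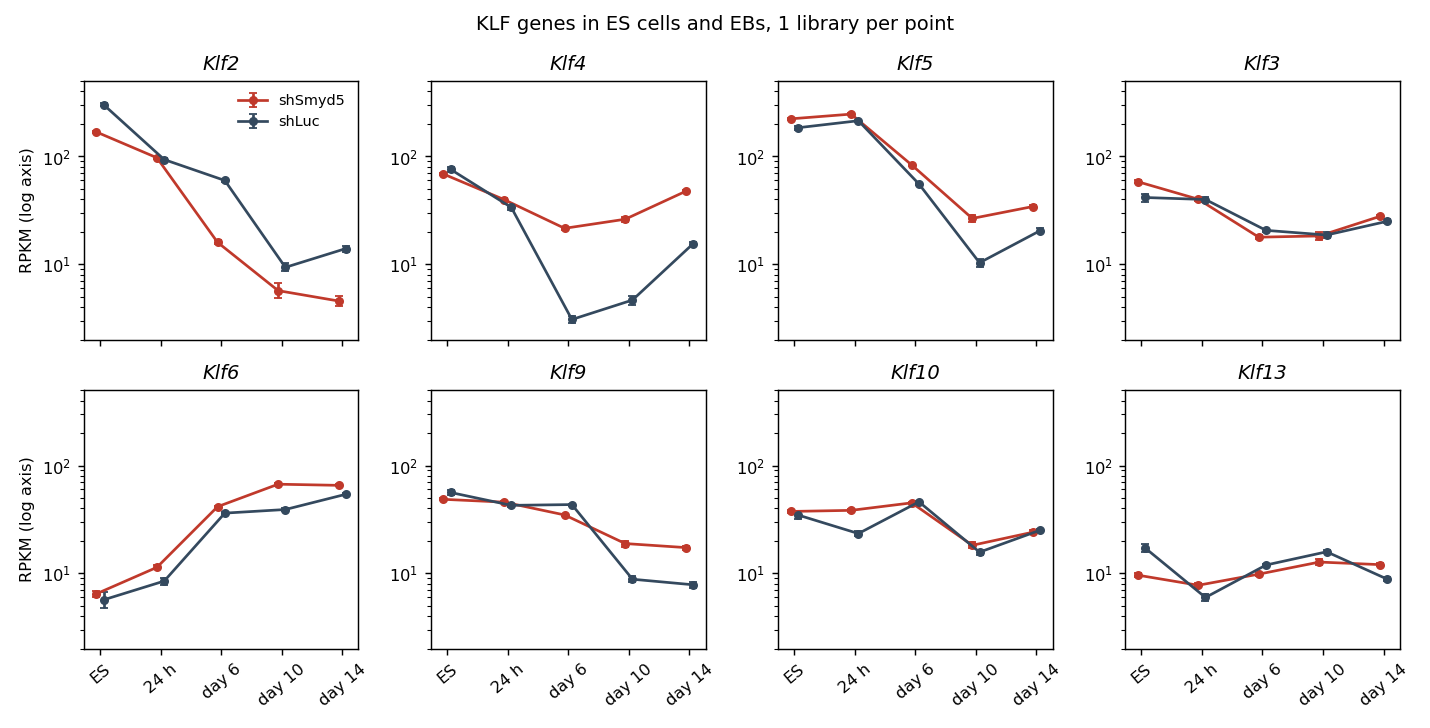
RPKM on a log axis against stage for the 8 KLF genes, with red points for shSmyd5 and blue points for shLuc, 1 library per point and exact 95% counting intervals as bars. The shSmyd5 points of Klf4 lie above the shLuc points from day 6 on, at 21.6 against 3.08 RPKM on day 6, while those of Klf2 lie below, at 16.0 against 59.9.

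Klf5, which maintains ES cells and early trophectoderm and is also known in gut epithelium, was the most abundant of the 8 in 4 of the 10 libraries, those of shSmyd5 ES cells, both 24 h EBs and shSmyd5 EBs of day 6. In shSmyd5 its RPKM was 223.1 in ES cells, 246.8 at 24 h, 83.4 on day 6, 26.6 on day 10 and 34.4 on day 14. In shLuc it was 184.5 in ES cells, 214.3 at 24 h, 55.6 on day 6, 10.4 on day 10 and 20.5 on day 14. By RPKM it peaked at 24 h in both arms, unlike Klf2 and Klf4, and was lowest on day 10 in both. After adjustment the log2 fold of 24 h over ES cells in shLuc was 2.15 for Klf5, 0.42 for Klf2 and 0.11 for Klf4. The contrast in shLuc thus depended on the adjustment. The difference between the arms passed 2-fold on day 10, with a log2 fold of 1.36 (1.19 to 1.52, adjusted 1.78), and was 0.59 on day 6 and 0.74 on day 14. In ES cells the fold of 0.27 became 1.03 after adjustment, and at 24 h 0.20 became -0.51.

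Summed over Klf2, Klf4 and Klf5, the arms were nearly level on day 6 in RPKM as deposited, at 121.0 in shSmyd5 and 118.5 in shLuc (counting standard error 0.999 and 1.01). This depends on the scaling. The median log2 fold of genes that reached an RPKM of 3 in both libraries was -0.27 on day 6, and relative to it the sum was higher in shSmyd5. The make-up of that sum differed: Klf2 gave 13.2% of it in shSmyd5 and 50.5% in shLuc, Klf4 gave 17.8% in shSmyd5 and 2.60% in shLuc, and Klf5 gave 68.9% in shSmyd5 and 46.9% in shLuc. At the other stages the sums were 460 and 562 RPKM in ES cells (shSmyd5, then shLuc), 384 and 342 at 24 h, 58.6 and 24.4 on day 10, and 86.5 and 50.1 on day 14. The ratio of Klf4 to Klf2 was 1.35 (1.28 to 1.42) in shSmyd5 and 0.0515 (0.0473 to 0.0559) in shLuc on day 6. On day 10 it was 4.59 (3.89 to 5.44) in shSmyd5 and 0.498 (0.437 to 0.567) in shLuc, and on day 14 it was 10.4 (9.30 to 11.7) in shSmyd5 and 1.11 (1.02 to 1.20) in shLuc. Klf4 thus exceeded Klf2 from day 6 on in shSmyd5, and only on day 14 in shLuc. The log2 fold of Klf4 less that of Klf2 was 4.67 on day 6, 3.17 on day 10 and 3.21 on day 14, and 4.74, 2.77 and 3.20 after adjustment.

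**Figure D2:**
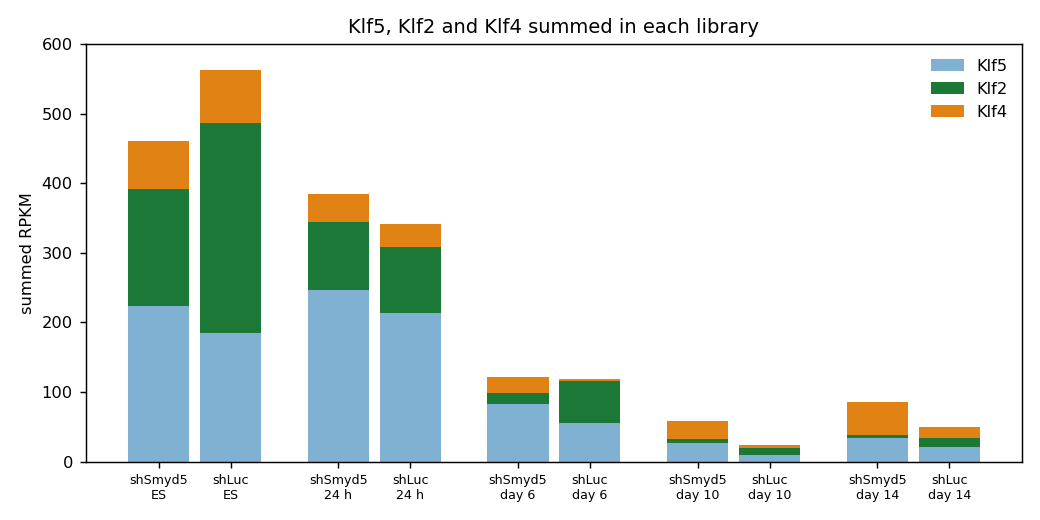
Summed RPKM of Klf5 (light blue), Klf2 (green) and Klf4 (orange) in each library, with the shSmyd5 bar left of the shLuc bar at each stage. On day 6 the bars are of nearly equal height in RPKM as deposited, 121.0 and 118.5, and the orange share is 17.8% in shSmyd5 and 2.60% in shLuc.

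In the order of the 8 genes by RPKM within a library, most neighbours had counting intervals apart. The exceptions lay at 24 h (Klf3, Klf4 and Klf10 in shSmyd5, Klf9 and Klf3 in shLuc), on day 10 (Klf5 and Klf4, and Klf9, Klf3 and Klf10 in shSmyd5; Klf13 and Klf10, and Klf5, Klf2 and Klf9 in shLuc) and on day 14 in shLuc (Klf10 and Klf3, Klf4 and Klf2). Klf4 was the lowest of the 8 in shLuc on day 6 and day 10, and Klf2 the lowest in shSmyd5 on day 10 and day 14.

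Klf3, the CtBP-dependent repressor known for work in adipose and erythroid cells, passed 2-fold between the arms at no stage. Its RPKM in shSmyd5 was 58.4 in ES cells, 40.2 at 24 h, 17.9 on day 6, 18.3 on day 10 and 27.9 on day 14, and in shLuc it was 41.7, 39.9, 20.7, 18.7 and 25.1 at the same stages. The largest log2 fold was 0.49 (0.36 to 0.62, adjusted 0.80) in ES cells, and at 24 h and on day 10 the intervals held 0.

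Klf6 was the 1 gene of the 8 that was much higher in late EBs than in ES cells. In shSmyd5 its RPKM was 6.47 in ES cells, 11.4 at 24 h, 41.5 on day 6, 67.1 on day 10 and 65.5 on day 14, and in shLuc it was 5.69, 8.50, 36.2, 39.1 and 54.2 at the same stages. It was the lowest of the 8 in both ES cell libraries and the highest of the 8 in all 4 libraries of day 10 and day 14. The log2 fold of day 14 over ES cells was 3.32 (3.23 to 3.41) in shSmyd5 and 3.23 (2.99 to 3.48) in shLuc, and 2.78 and 1.96 after adjustment. Between the arms its log2 fold was 0.78 (0.72 to 0.84, adjusted 0.57) on day 10 and 0.42 (0.29 to 0.54, adjusted 0.92) at 24 h.

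Klf9, a hormone-responsive repressor known as a glucocorticoid and thyroid hormone target, had its difference late. Its RPKM in shSmyd5 was 48.6 in ES cells, 45.8 at 24 h, 34.8 on day 6, 18.9 on day 10 and 17.4 on day 14, and in shLuc it was 56.2, 42.7, 43.4, 8.83 and 7.85 at the same stages. The step of day 10 over day 6 was -0.88 (-0.97 to -0.78) in shSmyd5 and -2.29 (-2.39 to -2.19) in shLuc. It was 2.13-fold higher in shSmyd5 on day 10 (log2 fold 1.09, 0.96 to 1.22, adjusted 1.14) and 2.20-fold on day 14 (1.13, 1.03 to 1.24, adjusted 0.99), which puts it close to the 2-fold line.

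Klf10, also known as the TGF-beta inducible early gene, passed 2-fold between the arms at no stage, and its largest log2 fold was 0.71 (0.63 to 0.80, adjusted 0.90) at 24 h, where its RPKM was 38.4 in shSmyd5 and 23.4 in shLuc. It was highest on day 6 (45.1 in shSmyd5, 46.1 in shLuc) and lowest on day 10 (18.2 in shSmyd5, 15.7 in shLuc) in both arms. Klf13, a regulator known from T cells and heart development, stayed within 7.77 to 12.7 RPKM in shSmyd5 and 5.98 to 17.3 in shLuc. Its log2 fold between the arms was -0.84 (-0.96 to -0.71) in ES cells, where adjustment left -0.27, and 0.44 (0.36 to 0.52, adjusted 0.26) on day 14.

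**Figure D3:**
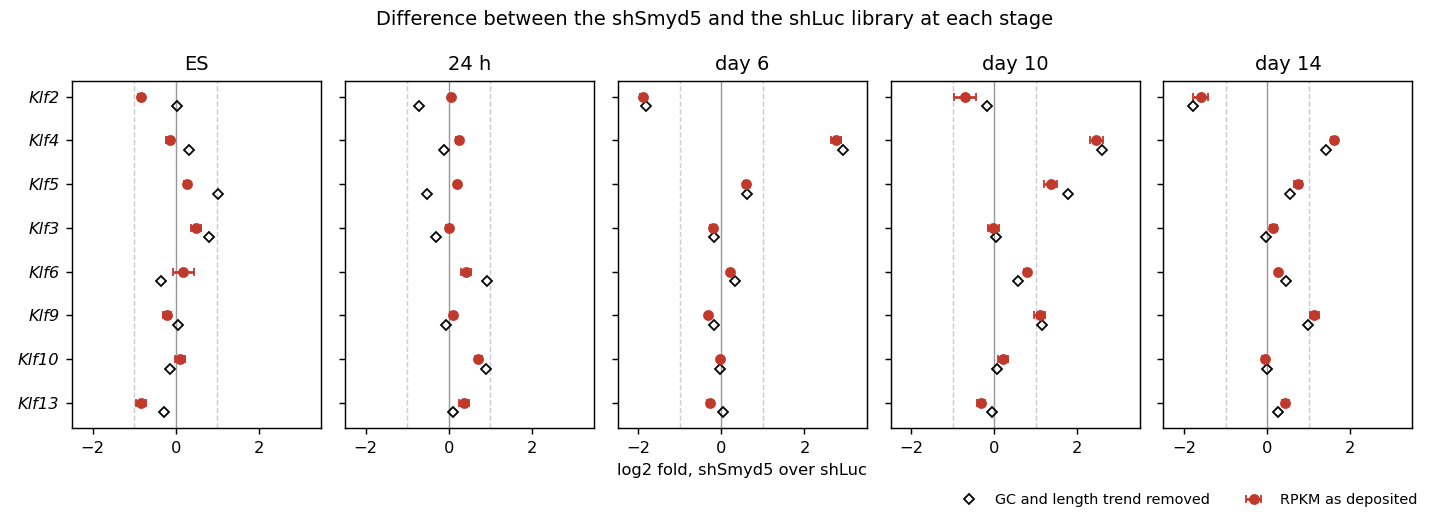
Log2 fold of shSmyd5 over shLuc for each KLF gene in 5 panels by stage, with red points and 95% counting intervals for RPKM as deposited and open diamonds after removal of the GC and length trend; dashed lines mark 2-fold. Klf4 lies right of the 2-fold line on day 6, day 10 and day 14 on both scales, and Klf2 left of it on day 6 and day 14.

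Counted by a fold of 2 where either library reached an RPKM of 3, which all 8 genes did in each comparison, 0 of the 8 differed between the arms in ES cells, where 15.8% of all 9329 genes tested did (4.52% higher, 11.3% lower). At 24 h the count was again 0, against 17.3% of all genes (13.0% higher, 4.26% lower). On day 6 Klf4 was higher and Klf2 lower, and of all genes 27.6% passed (8.18% higher, 19.4% lower). On day 10 Klf4, Klf5 and Klf9 were higher and 0 were lower, against 9.66% of all genes (3.15% higher, 6.51% lower). On day 14 Klf4 and Klf9 were higher and Klf2 lower, against 7.24% of all genes (3.17% higher, 4.07% lower). The genes nearest the line on either side were Klf9 at 1.09 and Klf6 at 0.78 on day 10, and Klf9 at 1.13 and Klf5 at 0.74 on day 14. The median log2 fold of the 8 was -0.12 on day 6, 0.49 on day 10 and 0.36 on day 14, beside -0.35, -0.05 and 0.01 for all genes tested. Since the genes were picked with these differences in view, nothing is read from the counts.

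By direction alone, Klf5 and Klf6 were higher in shSmyd5 at all 5 stages, as were 5.69% of the 7137 genes tested at every stage, and 0 of the 8 were lower at all 5, as were 4.53%. For Klf6 in ES cells the log2 fold was 0.18, and its counting interval held 0 (-0.07 to 0.45). After adjustment 0 of the 8 kept 1 sign across the stages. Between day 14 and ES cells in shSmyd5, Klf6 was higher and Klf2, Klf5, Klf3 and Klf9 were lower by at least 2-fold, against 49.9% of all genes (30.6% higher, 19.3% lower). In shLuc, Klf6 was higher and Klf2, Klf4, Klf5 and Klf9 were lower, against 59.1% of all genes (33.1% higher, 26.0% lower). Klf4 did not pass 2-fold in shSmyd5 (-0.53, -0.58 to -0.48, adjusted -0.43) and did in shLuc (-2.28, -2.38 to -2.18, adjusted -1.48). Adjustment also took Klf5 in shLuc from -3.16 to -1.64, and Klf3 at -1.07 in shSmyd5 lay just past the line that it missed in shLuc at -0.73.

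**Figure D4:**
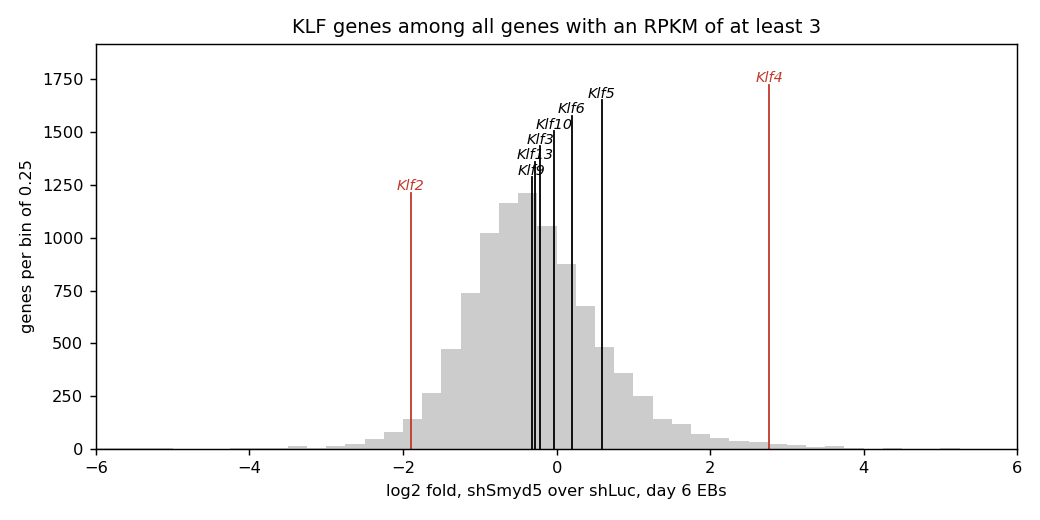
Number of genes per bin of 0.25 of the log2 fold of shSmyd5 over shLuc on day 6, for every gene that reached an RPKM of 3 in either library (grey), with lines at the 8 KLF genes. Klf4 at 2.77 and Klf2 at -1.90 stand in the tails, and the other 6 lie between -0.32 and 0.59.

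The 8 genes gave 73.6% to 97.2% of the summed RPKM of all 17 KLF genes in each library. Of the other 9, Klf1, an erythroid factor, and Klf17 reached at most 3.23 and 0.150 RPKM. Of all genes, 15.8% passed 2-fold between the arms in ES cells, 17.3% at 24 h and 27.6% on day 6. The share was 9.66% on day 10 and 7.24% on day 14. Klf16 was lower in shSmyd5 ES cells (-1.63), where it alone of 4 passed, but its adjusted fold there, -0.75, did not reach 2-fold. At 24 h 0 of 3 passed. On day 6 Klf16 was lower again, at 1.56 against 4.99 RPKM (log2 fold -1.62, -1.81 to -1.43, adjusted -1.43), the only 1 of the 5 tested there to pass 2-fold. On day 10 Klf8 was higher (1.17, 1.04 to 1.30) and Klf1 lower (-1.97, -2.65 to -1.32) of 6 tested, and on day 14 0 of 5 passed 2-fold. Among the SP genes Sp5 and Sp6 were lower of 5 tested in ES cells (-1.30 and -1.34), and 0 of 3 passed at 24 h. Sp2 was higher on day 6 (1.05, 0.99 to 1.11) of 4 tested. Sp8 and Sp5 were lower on day 10 (-2.05 and -1.49) of 6 tested. On day 14 0 of 4 passed, with Sp1 at 23.6 and 22.6 RPKM in shSmyd5 and shLuc.

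Partners and upstream genes of the KLFs were counted in the same way on plain folds, from lists chosen with earlier results of these data known. The shares of all genes for each stage are those given above. Of 12 partners in the ES cell network, 1 was higher in ES cells (Dppa3, 1.36) and 2 were lower (Pou5f1, -1.50, and Tbx3, -1.27), 0 passed at 24 h, and 1 was higher and 9 were lower on day 6, with a median log2 fold of -1.66. The 1 that was higher, named after its values were seen, was the T-box factor Tbx3 (7.32 RPKM in shSmyd5 and 2.91 in shLuc, log2 fold 1.30). Esrrb, a nuclear receptor of that network, was at -2.80, Nr5a2 at -2.53 and Nanog at -2.28, so the day 6 value of Klf2 lay on the side of these genes and that of Klf4 did not. On day 10, Sox2 was the only 1 of 8 tested to pass (-1.41). On day 14, 5 of 9 tested were lower, among them Dppa3 at -3.71 and Sox2 at -1.83. Of the LIF receptor and STAT3 pathway, 3 of 10 were lower in ES cells (Pim3, -1.64, Socs3, -1.22, and Pim1, -1.06), 2 of 8 were higher at 24 h (Pim1, 1.56, and Pim3, 1.10), 2 of 8 were lower on day 6, the receptor subunit Il6st (-1.26) and the kinase Pim3 (-1.14), 0 of 10 passed on day 10 and Pim3 alone was higher on day 14 (1.17).

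Immediate early genes, which respond within minutes to stimuli and to tissue dissociation, had 2 of 11 lower and 0 higher in ES cells (Junb at -2.24, Ier2 at -1.01) and 3 of 8 higher at 24 h (Ier3 at 2.35). On day 6 3 of 14 were higher, where 8.18% of all genes were, on day 10 3 of 14, where 3.15% were, and on day 14 6 of 14, where 3.17% were, and 0 were lower on these days. Atf3 had a log2 fold of 2.57 on day 6, and Ctgf, a matrix protein, had 2.36 on day 10 and 2.52 on day 14. Of TGF-beta and SMAD targets 3 of 8 were lower in ES cells, Smad7 (-1.62), Id1 (-1.16) and Id3 (-2.08), 0 of 7 passed at 24 h, 3 of 8 were higher on day 6, Id1 (1.93), Id2 (1.25) and Smad6 (1.09), and 1 of 10 was lower on day 10 (Id3, -1.04). Of glucocorticoid targets 0 of 4 passed in ES cells, Per1 (1.50) and Ddit4 (2.17) were higher at 24 h, Fkbp5 was lower on day 6 (-1.40) and day 10 (-1.02) and Ddit4 higher on day 6 (1.01), and 0 of 6 passed on day 14. Of 8 corepressors, 0 passed in ES cells and at 24 h, Sin3b was lower on day 6 (-1.46), 0 passed on day 10 and Sap30 was lower on day 14 (-1.19).

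Markers of cell types moved with the arms as well, and their part in the KLF differences was not tested. Of all genes, 4.52% were higher and 11.3% lower in ES cells, and 13.0% higher and 4.26% lower at 24 h. On day 6 8.18% were higher and 19.4% lower, on day 10 3.15% and 6.51%, and on day 14 3.17% and 4.07%. Of primitive and visceral endoderm markers 1 of 2 tested was lower in ES cells (Col4a1, -1.93) and 4 of 4 tested were higher at 24 h, and all 12 were higher in shSmyd5 on day 6, 8 of 12 on day 10 and 6 of 12 on day 14, with 0 lower from 24 h on. Their summed RPKM over the 5 stages ran from 11.5 to 4688 in shSmyd5 and from 14.5 to 4040 in shLuc, with 1326 in shSmyd5 and 169 in shLuc on day 6, and none of them was at 0 from day 6 on. Epithelial markers summed to 552 and 586 RPKM on day 6, 1045 and 735 on day 10, and 1159 and 753 on day 14 (shSmyd5, then shLuc), with Krt19 higher and Cdh1 and Cldn7 lower past 2-fold on day 6, Krt8 lower in ES cells (-1.58) and Cldn6 higher at 24 h (1.53). Endothelial markers, a cell type in which Klf2 is also known, summed to 3.43 and 13.7 on day 6, 40.9 and 60.5 on day 10, and 35.1 and 61.5 on day 14, with Tie1 and Emcn at 0 in shSmyd5 and Emcn at 0 in shLuc on day 6. Of these, Pecam1 was the only 1 tested on day 6 (-2.82), and 1 of 5 was lower on day 10 and 2 of 5 on day 14.

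ES cell markers, 6 in all of which 5 are also among the 12 partners, summed to 2156 RPKM in shSmyd5 ES cells and 2867 in shLuc ES cells. Their sum on day 6 was 335 RPKM in shSmyd5 and 752 in shLuc. Of the 6, 1 was lower in ES cells (Pou5f1), 0 at 24 h, 5 on day 6, 1 on day 10 and 4 on day 14. Of all genes, 11.3%, 4.26%, 19.4%, 6.51% and 4.07% were lower at these stages. Fibroblast and feeder markers summed to 156 and 461 RPKM on day 10 and to 1637 and 3017 on day 14 (shSmyd5, then shLuc), with 4 of 6 and 2 of 6 lower. Erythroid markers summed to 390 and 707 RPKM on day 10, with 3 of 6 lower, and to 249 and 101 on day 14, with 2 of 3 higher. Of the 3 lower on day 10, 1 is Klf1, already counted among the other KLF genes. On day 14 3.17% of all genes were higher. In both ES cell libraries the 12 endoderm markers summed to 11.5 RPKM in shSmyd5 and 22.1 in shLuc, and the 7 fibroblast markers to 4.12 and 4.82.

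The genes most like Klf4, Klf2 and Klf5 over the 10 libraries were found by the mean absolute difference of log2 RPKM, each gene centred on its own mean, among 8425 genes that reached an RPKM of 10; the libraries also share differences in depth and GC trend. Nearest to Klf2 were Prdm14 and Gpa33 (0.38 each), Hpdl and Lrrc34 (0.40 each) and Tex14 (0.41), and Prdm14, a regulator of ES cells and germ cells, had a log2 fold of -2.15 on day 6. Nearest to Klf5 were AU018091 (0.37), Nefh and Ccrn4l (0.41 each), L1td1 (0.42) and Pdss1 (0.48). Klf4 had no neighbour as close, the nearest being Pdgfa (0.61), Ass1, Mospd3 and Inpp5d (0.67 each) and Uqcrq (0.71), with log2 folds of 0.49 to 0.99 on day 6. Klf5 stood at place 1077 from Klf4 and Klf2 at place 6330, with a difference of 1.63 beside a median of 1.34 for all genes. Counted from Klf2 the same difference of 1.63 lay below the median of 1.98 for all genes, with Klf4 at place 1925. The genes were picked in part because Klf4 and Klf2 part ways in these same libraries, so the distance between them restates that choice.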

How the data were processed

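The authors made RNA-Seq libraries from polyA RNA of R1 ES cells and EBs (1 per condition, 10 in all) and mapped the reads to mm9; the submitters' processing notes name CASAVA and Bowtie2, with versions not given in the sources used here. The cDNA was double-stranded before adapters were added, so strand is unknown. The deposited tables list, for 29257 RefSeq transcripts, the whole read count and the RPKM that the authors computed from it. Within a stage there is no replicate, so no SD or test is given, and no test over the 5 stages was made, since the genes were picked on these values. Which of the study's hairpins was sequenced is not given in the labels.

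For symbols with several transcripts (4019 of 22878) the one with the most reads on average was kept; each of the 8 genes has 1. The 8 genes and the context lists were chosen with earlier results of these data known. Folds are on the log2(RPKM + 0.1) scale, which understates changes of low genes, with exact binomial (folds, ratios) and exact Poisson (levels) 95% intervals that cover counting error only, at depths of 3895537 to 43377815 reads in genes. A gene was counted at 2-fold where either library reached an RPKM of 3. From each context list up to 4 genes per comparison could be named, those with the largest folds, and Tbx3 was named outside this rule. GC content (for 20234 genes) and coordinates came from GENCODE M1 (NCBIM37, mm9). In each comparison an additive spline (5 knots, degree 3) on GC content and log length was fitted. The fit used those of these genes that reached an RPKM of 3 in either library. The interval and trend steps were tested on simulated data. Alternatives changed the pseudocount (1, 0.01), RPKM filter (none, 10), fold (1.5), scaling (median, TMM), trend and transcript choice. TMM factors came from edgeR 4.0.16 in R 4.3.3, intervals from scipy 1.17.1, the spline from scikit-learn 1.9.0 and figures from matplotlib 3.10.9, under Python 3.11.15 with pandas 2.3.3 and numpy 2.4.6. Other data types of the study were not analysed here. Counts of the context lists are given between the arms only, and the day 14 result of 1 list is not reported here.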

Additional observations from a re-analysis of the deposited data

Results flagged for a closer look

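For 3 of the 8 genes the shSmyd5 library lay on opposite sides of the shLuc library at different stages, with both counting intervals clear of 0 and the folds at least 2-fold apart, and these differences between stages were not tested, since each stage has 1 library per arm. Klf4 had a log2 fold of -0.14 in ES cells and 2.77 on day 6; the value in ES cells became 0.32 with the GC and length trend removed. Klf9 had -0.32 on day 6 and 1.13 on day 14, and the TMM shift on day 6, 0.33, is as large as its value there. Klf13 had -0.84 in ES cells and 0.44 on day 14. With the trend removed these values became -0.27 and 0.26, which are less than 2-fold apart. Other genes changed sign without meeting this rule, among them Klf3 at 0.49 in ES cells and -0.21 on day 6, which are less than 2-fold apart. Klf2 was at 0.06 at 24 h, with an interval that reached down to 0.00, and at -1.90 on day 6.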

How the results depend on the processing

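The 7 counts of KLF genes at least 2-fold different were recomputed under 9 settings each, and 59 of the 63 values stayed within 1.5 times the reported count. A fold of 1.5 gave 2 in ES cells (Klf2 and Klf13, lower), 1 at 24 h (Klf10, higher) and 5 on day 10 (Klf2, lower, and Klf4, Klf5, Klf6 and Klf9, higher), by construction of the looser rule. Removal of the GC and length trend gave 1 in ES cells (Klf5, higher). A single fold of these genes cannot change with the RPKM filter, the fold of 1.5 or the transcript choice, so its values under those settings were fixed in advance. Of 162 values for the 18 single folds past 2-fold, which include these, 0 changed direction and 160 stayed past 2-fold. The exceptions, both with the trend removed, were Klf9 on day 14 (0.99) and Klf3 in shSmyd5 on day 14 over ES cells (-0.87). Klf4 on day 6 ran from 2.47 (pseudocount 1) to 3.09 (TMM), and Klf2 from -1.90 to -1.57. TMM shifted all folds between the arms by 0.22 in ES cells, -0.18 at 24 h, 0.33 on day 6, 0.13 on day 10 and 0.02 on day 14. With the median fold subtracted, Klf2 was lower in shSmyd5 at all 5 stages, though only by -0.08 at 24 h, and Klf5 and Klf6 were higher at all 5. The counting interval of the plain fold of Klf6 in ES cells held 0. The share of all genes with 1 direction under this setting is not given. Counting error is widest for Klf6 in shLuc ES cells (134 reads). No paired analysis was possible because each condition has 1 library and so no replicate numbers to block on within a stage, and leaving out a library leaves no value for its stage. A fit over the 5 stages with stage as a block was not made, since the genes were picked on these values.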
